A study of Homo sapiens with 24 samples.

Results

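The NRF2, glutathione and antioxidant genes were examined as a named list of 35 genes, taken by gene symbol. The list was chosen with earlier results of these data known. Of the 35 members, 34 had a probe with 1 annotated symbol on the Illumina array. FTH1 had none. A probe was kept where its detection p-value, which compares it with the array's negative controls, was under 0.05 on at least 2 arrays. GGT1, which cleaves glutathione outside the cell, was detected on 0 of 24 arrays, so 33 members remained among 14807 genes tested.

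The study exposed 4 established triple-negative breast cancer lines to 2 µM cisplatin, a platinum drug that crosslinks DNA, and took RNA at 0, 24 and 72 h. The 12 groups were BT549, HCC38, MDA-MB-157 and MDA-MB-231 at each of these times, with 2 replicate arrays per group that the design text calls independent. The 0 h groups had no time in the drug. Untreated arrays at 24 or 72 h were not analysed here. Effects of the drug and of the hours in culture thus cannot be told apart. The p-values measure the spread between these arrays, which may be technical, and 4 lines do not stand for all tumours of this class. These are whole-culture measurements, in which fewer cells of a type and less RNA per cell cannot be told apart.

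Between 18303 and 21976 of 47322 probes were detected per array, and replicate arrays correlated over genes at 0.977 to 0.991. Of the 12 pairs, MDA-MB-231 at 0 h had the most genes over 2-fold apart, 765. The estrogen receptor ESR1 and the blood markers PTPRC, CD3E and HBB were detected on 0 of 24 arrays, the progesterone receptor PGR on 2, and the mesenchymal marker VIM on 24. The epithelial markers EPCAM and CDH1 were detected on 22 and 21, and the luminal markers KRT8, KRT18, GATA3 and FOXA1 on 23, 20, 16 and 7. At 0 h HCC38 differed from the mean of the other lines by 5.60 log2 units in EPCAM, 5.69 in CDH1 and -1.99 in VIM. ERBB2, which encodes HER2, was detected on 24 arrays at log2 7.84 to 9.97. The liver gene ALB, which these lines should lack, gave a detected signal on 24 arrays at log2 5.26 to 6.91, and its part in the results was not tested.

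NRF2, encoded by NFE2L2, is a transcription factor that KEAP1 binds and passes to a ubiquitin ligase for degradation. Oxidants and electrophiles modify KEAP1, NRF2 then accumulates, and with small MAF proteins it binds antioxidant response elements near genes for glutathione synthesis, thioredoxin, NADPH supply and detoxification. Glutathione binds cisplatin, and high NRF2 or glutathione levels are known from other tumour lines as a setting of platinum resistance.

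The promoter sequence of the members bears on this background, so the stretches that hold the core of the antioxidant response element are shown for 6 members. The core was searched as TGACNNNGC on both strands, in the RefSeq promoter windows of build GRCh38.p14 that run from 250 bases before to 50 after a gene's start. The stretches below lie upstream of the start, are written 5′ to 3′ on the gene's strand, and have the core or its reverse complement in capitals. GCLM, ME1, GPX2 and GSTP1 were chosen among members with an upstream core because their mean at 0 h was highest in HCC38. TXNRD1 and KEAP1 were chosen because they encode a classical target and the inhibitor of NRF2. The TXNRD1 stretch shown is from the first window listed, which also held a core that crosses the start. A later TXNRD1 window held another core upstream, which is not shown.
GCLM, chr1:93909431-93909494, minus strand: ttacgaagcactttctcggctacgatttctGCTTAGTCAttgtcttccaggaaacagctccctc
ME1, chr6:83431150-83431218, minus strand: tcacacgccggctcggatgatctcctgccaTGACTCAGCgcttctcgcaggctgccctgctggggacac
GPX2, chr14:64942829-64942897, minus strand: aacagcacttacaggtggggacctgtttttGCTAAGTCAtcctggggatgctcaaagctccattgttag
GSTP1, chr11:67583716-67583784, plus strand: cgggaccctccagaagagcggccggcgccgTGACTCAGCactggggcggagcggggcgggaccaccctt
TXNRD1, chr12:104215650-104215718, plus strand: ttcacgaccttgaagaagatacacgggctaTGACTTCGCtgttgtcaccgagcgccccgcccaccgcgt
KEAP1, chr19:10502772-10502855, minus strand: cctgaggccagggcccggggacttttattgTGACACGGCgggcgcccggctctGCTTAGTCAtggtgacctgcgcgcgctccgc
ME1 and GSTP1 carried the same 9 letters, TGACTCAGC. GCLM and KEAP1 shared GCTTAGTCA, read on the opposite strand.

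Taking the first window listed for each gene, 26 members had a promoter in the table and 8 of them (30.8%) held the core, against 13.6% of all 27305 promoters. Of 61 other genes of the same pathways with a promoter, from the list compared further below, 9 (14.8%) held it. The 8 members were GCLM, TXNRD1, PGD, ME1, GPX2, GSTP1, GSTA4 and GSTO1. Among the members without the core in this window were NQO1, GCLC, SRXN1, TALDO1 and TKT. HMOX1, SLC7A11, GSR and PRDX1 were among the members that had no promoter there. The KEAP1 stretch above comes from a window listed later for that gene, and is not counted among the 8. Later windows of MGST1 and GGT1 also held a core and are likewise not counted. Of the 8, 4 had their highest 0 h level in HCC38, 2 in BT549 and 2 in MDA-MB-231, and of the 25 tested members with a promoter HCC38 was highest for 9. Both HCC38 counts include GPX2, which passed the detection rule only through that line. A match is a run of letters in this window and not a measured binding site. A gene without a match may still hold the element farther from its start, which was not searched.

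The lines differed in most of these genes at 0 h. Values are log2 normalized intensities, and since probes differ in brightness a gene is compared between arrays and never with another gene. A member was called where limma's test, adjusted by Benjamini-Hochberg over all 14807 genes, gave p under 0.05. The F test between the lines at 0 h called 30 of 33 members (90.9%), against 66.8% of all genes. This count and the median range below include GPX2, which passed the detection rule only through the line where it was high. The 3 not called were TXN (adjusted p = 0.711), NFE2L2 (0.329) and GSR (0.110). The median range over the lines was 1.30 log2 units for the members and 0.996 for all genes. Of the variation of a member over the 24 arrays, a median of 88.5% lay between lines, 2.96% between times and 6.75% between replicates. For all genes these medians were 74.6%, 2.38% and 13.5%.

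**Figure D1:**
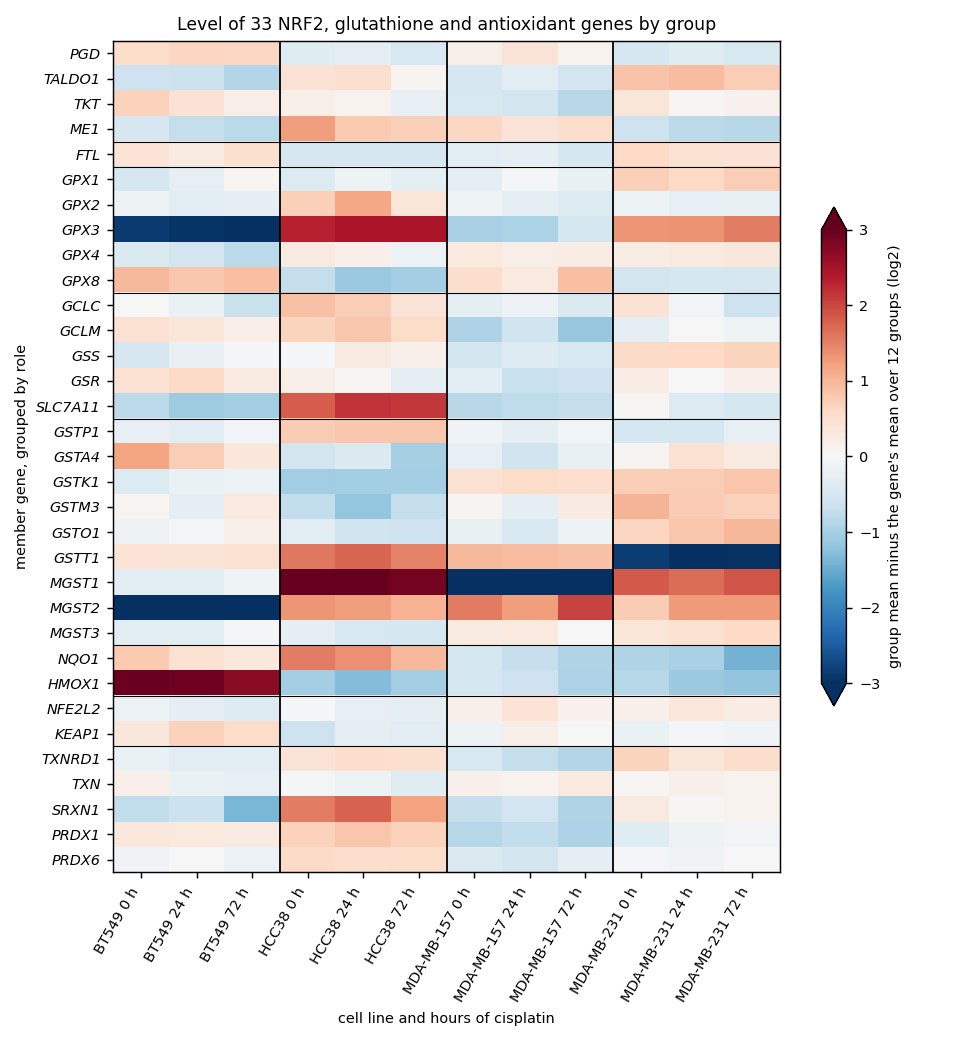
Level of the 33 members in the 12 groups, as the group mean of 2 arrays minus the gene's mean over the groups (log2, colour scale cut at -3 and 3), with genes grouped by role and columns ordered by line and hours of cisplatin. Colour changes sharply between lines and little within a line: MGST1 is low in MDA-MB-157, MGST2 and GPX3 in BT549 and GSTT1 in MDA-MB-231, and HMOX1 is high in BT549.

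Of the glutathione transferases, which join glutathione to electrophiles, 9 of 9 were called, and MGST2 and MGST1 had the smallest p-values of the members. MGST1, a membrane transferase that also reduces lipid peroxides, read 12.29 and 12.37 in HCC38, 10.95 and 11.31 in MDA-MB-231, 9.21 and 8.71 in BT549, and 5.74 and 4.43 in MDA-MB-157 at 0 h. In MDA-MB-157 it was detected on only 1 of the 2 arrays at 0 h and on none later. With the undetected array set to the lowest signal that counts as detected there, HCC38 was at least 127-fold above MDA-MB-157 (F test, adjusted p = 4.14e-13).

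MGST2, a related membrane enzyme that can also make leukotriene C4, read 9.94 and 10.15 in HCC38, 10.26 and 10.29 in MDA-MB-157, 9.86 and 9.09 in MDA-MB-231, and 4.91 and 4.84 in BT549 at 0 h. It was not detected on any BT549 array at any time and was detected on all arrays of the other lines. BT549 was at least 34.8-fold lower than HCC38, at least 40.9-fold lower than MDA-MB-157 and at least 23.4-fold lower than MDA-MB-231 at 0 h (F test, adjusted p = 1.96e-13). These are bounds, since the BT549 signal lies within the background: the mean of the brighter line is set against the lowest signal that counts as detected.

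GSTT1, a cytosolic transferase of the theta class, was not detected in MDA-MB-231. It read 8.83 and 9.31 in HCC38, 8.46 and 8.49 in MDA-MB-157, 7.97 and 7.84 in BT549, and 4.43 and 4.88 in MDA-MB-231 at 0 h. No MDA-MB-231 array detected it at any time, and all arrays of the other lines did. MDA-MB-231 was at least 16.7-fold lower than HCC38, at least 11.1-fold lower than MDA-MB-157 and at least 7.46-fold lower than BT549 (F test, adjusted p = 3.94e-12).

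The other transferases differed less. GSTP1, the pi-class enzyme abundant in many tumours, read 13.50 and 13.39 in HCC38 and 12.13 to 12.66 on the 6 arrays of the other lines, without overlap. GSTA4, which clears the lipid aldehyde 4-hydroxynonenal, read 8.36 and 7.90 in BT549 and 6.36 to 7.15 elsewhere. GSTK1 of the kappa class and GSTM3 of the mu class were lowest in HCC38, 1.78 and 1.76 log2 units under MDA-MB-231. GSTO1, which reduces dehydroascorbate, read 12.68 and 12.80 in MDA-MB-231 and 11.61 to 12.07 elsewhere. MGST3 spanned 0.68 log2 units between its highest and lowest line (adjusted p = 0.0191).

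Among the peroxidases, which reduce hydrogen peroxide and lipid peroxides, 5 of 5 were called, GPX2 among them, which passed the detection rule only through the line where it was high. GPX3, the secreted form, read 10.29 and 9.88 in HCC38, 9.54 and 8.64 in MDA-MB-231, 6.64 and 6.95 in MDA-MB-157, and 4.88 and 4.92 in BT549 at 0 h. The order of the 4 lines was without overlap between neighbours, and BT549 detected it on 1 of 6 arrays. With BT549 at the detection limit on 1 of its 2 arrays at 0 h, HCC38 was at least 35.7-fold above it (F test, adjusted p = 2.43e-12).

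GPX8, a peroxidase of the endoplasmic reticulum membrane, read 11.63 and 11.24 in BT549, 10.85 and 11.13 in MDA-MB-157, 10.04 and 9.76 in MDA-MB-231, and 9.56 and 9.95 in HCC38 at 0 h (F test, adjusted p = 3.37e-07). MDA-MB-231 and HCC38 overlapped in it, and BT549 and MDA-MB-157 lay above both. GPX2, known from the gut epithelium, was detected in HCC38 alone, on 5 of its 6 arrays. At 0 h it was at least 1.61-fold higher there than in BT549, at least 1.55-fold higher than in MDA-MB-157 and at least 1.52-fold higher than in MDA-MB-231. With HCC38 replicate 2 alone these bounds were 1.26-fold, 1.21-fold and 1.19-fold, and with replicate 1 alone 2.07-fold, 1.99-fold and 1.95-fold. GPX1, the main cytosolic peroxidase, was highest in MDA-MB-231 at 11.98 and 11.69, against 10.47 to 10.87 elsewhere. GPX4, which reduces phospholipid peroxides, was lowest in BT549 at 12.39 and 12.18, against 12.92 to 13.07 elsewhere.

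HMOX1 and NQO1 are the members most often read as NRF2 reporters, and their line patterns differed from each other. HMOX1, heme oxygenase 1, read 11.25 and 11.01 in BT549, 7.73 and 7.56 in MDA-MB-157, 6.87 and 7.76 in MDA-MB-231, and 7.47 and 6.84 in HCC38 at 0 h. BT549 stood apart, and MDA-MB-231 overlapped both MDA-MB-157 and HCC38. BT549 was 13.6-fold above the mean of the other lines (adjusted p = 2.71e-11).

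NQO1, a quinone reductase, read 13.87 and 13.62 in HCC38, 13.22 and 12.77 in BT549, 11.93 and 11.45 in MDA-MB-157, and 11.38 and 11.22 in MDA-MB-231 at 0 h (F test, adjusted p = 4.58e-07). No neighbouring lines overlapped, but MDA-MB-157 and MDA-MB-231 differed by only 0.39 log2 units (adjusted p = 0.294). HCC38 was 3.37-fold above the mean of the other lines (adjusted p = 2.54e-06). HCC38, with the highest NQO1, overlapped MDA-MB-231 at the low end of HMOX1.

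The regulators varied less. NFE2L2 read between 9.67 and 10.30 on the 8 arrays at 0 h, and its farthest lines, BT549 and MDA-MB-157, lay 0.32 log2 units apart (adjusted p = 0.182). KEAP1 read 9.34 and 9.48 in BT549, 8.98 and 8.86 in MDA-MB-157, 8.78 and 8.95 in MDA-MB-231, and 8.57 and 8.34 in HCC38. BT549 was above and HCC38 below the other lines without overlap (F test, adjusted p = 2.59e-04).

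Of the genes for glutathione supply, 4 of 5 differed between lines. SLC7A11, the antiporter that brings in cystine, was detected on all 6 HCC38 arrays, on 1 of 2 MDA-MB-231 arrays at each time, and on none of BT549 or MDA-MB-157. It read 8.09 and 6.43 in HCC38 and 4.75 and 6.19 in MDA-MB-231 at 0 h. HCC38 was at least 5.05-fold above BT549 and at least 4.85-fold above MDA-MB-157 (F test, adjusted p = 4.83e-05). With HCC38 replicate 2 alone these bounds were 2.84-fold and 2.73-fold, and with replicate 1 alone 8.98-fold and 8.63-fold. SLC7A11 was singled out here after its values were seen, as were GCLC, SRXN1, TKT and KEAP1 for their values per array.

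GCLM, the modifier subunit of glutamate-cysteine ligase, read 10.68 and 10.02 in HCC38, 10.06 and 10.17 in BT549, 9.43 and 9.40 in MDA-MB-231, and 8.75 on both arrays of MDA-MB-157 (F test, adjusted p = 1.19e-05). GCLC, the catalytic subunit, read 9.30 and 8.26 in HCC38, 7.60 and 9.08 in MDA-MB-231, 7.84 and 7.99 in BT549, and 7.41 and 7.83 in MDA-MB-157. Its adjusted p was 0.0476, near the threshold, and the replicates of HCC38 and MDA-MB-231 each lay over 2-fold apart. GSS, glutathione synthetase, was highest in MDA-MB-231 at 9.58 and 9.65, against 8.46 to 8.99 elsewhere.

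In the thioredoxin group 4 of 5 members were called. SRXN1, sulfiredoxin, which restores overoxidised peroxiredoxins, read 11.69 and 10.71 in HCC38, 9.55 and 10.30 in MDA-MB-231, 9.19 and 8.73 in MDA-MB-157, and 8.92 and 8.93 in BT549. HCC38 lay above all other arrays, 3.81-fold over their mean (adjusted p = 7.15e-06). PRDX1, a peroxide-reducing peroxiredoxin, read 13.98 and 13.82 in HCC38 and 12.42 and 12.28 in MDA-MB-157, with the other lines between. PRDX6, a peroxiredoxin that uses glutathione, was 0.75 log2 units above the mean of the other lines in HCC38. TXNRD1, thioredoxin reductase, differed by 1.15 log2 units between MDA-MB-231 and MDA-MB-157 (adjusted p = 0.0038). TXN, thioredoxin itself, read 13.67 to 14.14 on the 8 arrays, with all lines overlapping.

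All 4 NADPH suppliers differed between lines. TALDO1, transaldolase of the pentose phosphate pathway, read 12.32 and 12.51 in MDA-MB-231, 12.002 and 11.974 in HCC38, 11.14 and 10.99 in MDA-MB-157, and 10.83 and 11.06 in BT549 at 0 h (F test, adjusted p = 4.32e-07). MDA-MB-231 and HCC38 lay above both other lines, which overlapped. ME1, malic enzyme, was highest in HCC38 at 9.93 and 10.46 and lowest in MDA-MB-231 at 7.95 and 8.68. PGD, phosphogluconate dehydrogenase, and TKT, transketolase, had their highest mean in BT549, with PGD at 11.37 and 11.02 and TKT at 12.73 and 12.34. MDA-MB-157 was close in PGD, at 10.98 and 10.65 (limma, BT549 against MDA-MB-157, adjusted p = 0.295). MDA-MB-231 overlapped BT549 in TKT, at 11.95 and 12.47 (limma, adjusted p = 0.441). FTL, the iron-storing ferritin light chain, read 14.43 and 14.63 in MDA-MB-231 and 13.47 and 13.36 in HCC38.

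**Figure D2:**
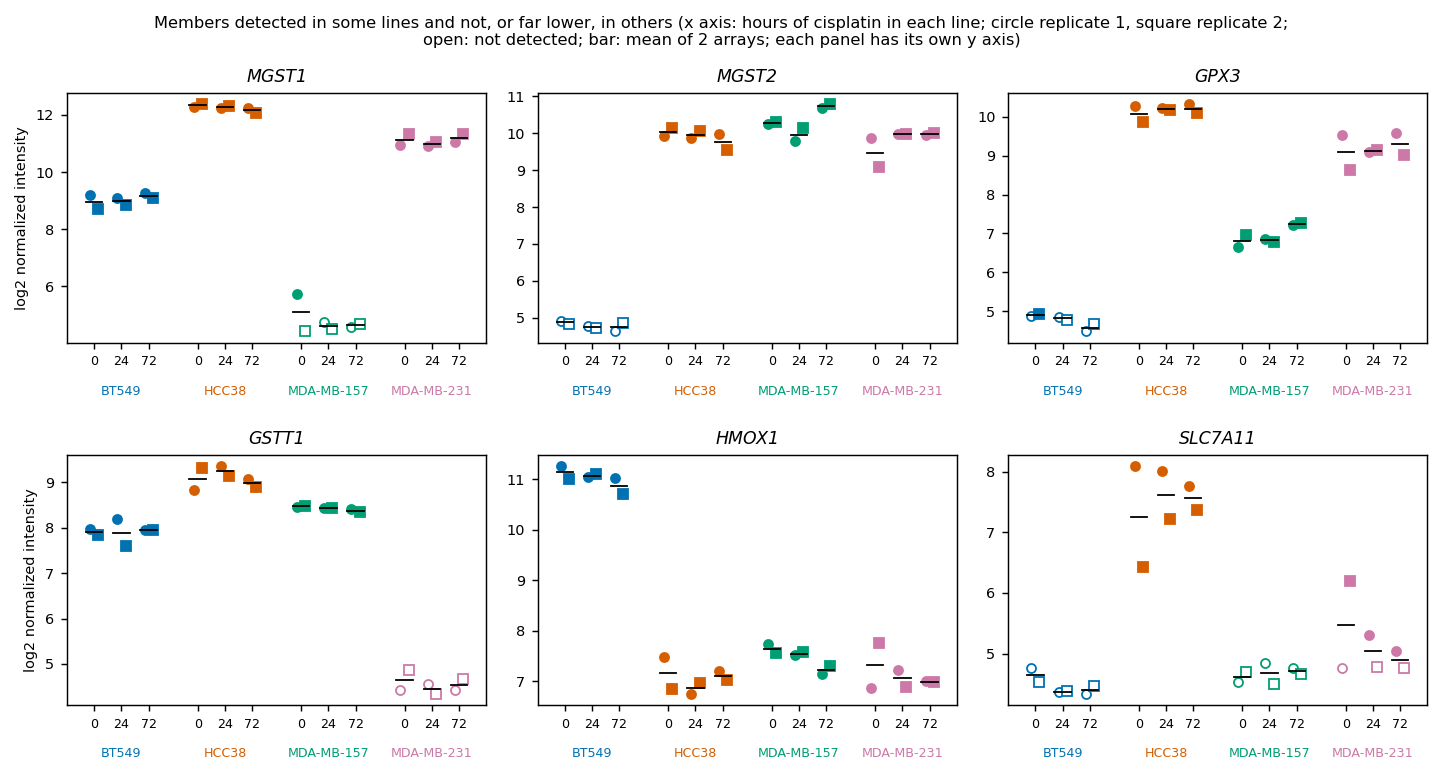
Log2 normalized intensity (y axis, its own range in each panel) of 6 members on all 24 arrays, by line and hours of cisplatin (x axis), with circles for replicate 1, squares for replicate 2, open symbols for arrays without detection and bars for means of 2. MGST2 is open in all BT549 groups and GSTT1 in all MDA-MB-231 groups, and these gaps between lines are seen at 0, 24 and 72 h.

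Each line was also set against the mean of the other 3 at 0 h, in contrasts that share their arrays. In HCC38 15 members were higher and 8 lower, against 22% and 21.5% of all genes. The 15 were SLC7A11, GCLC, GCLM, NQO1, SRXN1, PRDX1, PRDX6, ME1, TALDO1, GPX2, GPX3, GSTP1, GSTT1, MGST1 and MGST2. The mean of the other lines includes lines without detection, as BT549 for MGST2 and MDA-MB-231 for GSTT1. MGST2 had its highest mean in MDA-MB-157 and TALDO1 in MDA-MB-231. GCLC in HCC38 was not called against BT549 (limma, adjusted p = 0.0742) or MDA-MB-231 (0.397). GPX2 passed the detection rule only through HCC38, so its place here and among the highest means below was fixed by that rule. In MDA-MB-157 5 were higher and 15 lower, against 21% and 22.2%. The 5 were GPX8, GSTK1, GSTT1, ME1 and MGST2, and of these GSTT1, ME1 and MGST2 were also among the 15 of HCC38. In BT549 11 were higher and 10 lower, against 21% and 20.1%, and in MDA-MB-231 11 were higher and 8 lower, against 17.6% and 19.5%. HCC38 had the highest mean of 13 of 33 members (39.4%, all genes 25.6%) and MDA-MB-157 of 3 (9.09%, all genes 26%).

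The number that opens an array's name was taken here to mark its slide. Each slide so defined held 1 array of every group, so the order could be read within each slide. The highest line was the same on both slides for 27 members (81.8%, all genes 63.4%) and the lowest for 21 (63.6%, all genes 58.5%). The 27 include GPX2, which passed the detection rule only through HCC38, its highest line. Where several lines were undetected, as for GPX2 and SLC7A11, the lowest line is only an order of background signals. MGST1, MGST2, GPX3, GSTT1 and HMOX1 were among those with both the same.

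During exposure 0 of 33 members were called in any average over the 4 lines. At 72 h 1 was called with the replicate number as a block, NQO1, and 2 with it as a block within each line, NQO1 and GCLC. limma called 2 of all genes at 24 h (0.0135%), 179 at 72 h (1.21%) and 22 between 24 and 72 h (0.149%). At an unadjusted p under 0.05 the members were 3 at 24 h (all genes 8.75%), 9 at 72 h (all genes 15.5%) and 8 between 24 and 72 h (all genes 10.3%). Of the 9 at 72 h, 8 were lower (all genes 8.04%) and 1, KEAP1, was higher (all genes 7.48%). The 8 were NQO1, GCLC, TKT, ME1, TALDO1, HMOX1, GPX4 and SRXN1. The median change of the members at 72 h was -0.09 log2 units, with 20 of 33 below 0, and that of all genes was 0.00. Within slide 1 the members' median was -0.01 with 17 below 0, and within slide 2 it was -0.16 with 21 below 0. On both slides 15 members lay below 0. The members' changes given below describe these arrays, and none passed the test.

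At 72 h 9 members (27.3%) lay below 0 in all 4 lines, against 9.53% of all genes, and 5 (15.2%) above 0 in all 4, against 9.1%. The 9 were NQO1, HMOX1, GCLC, GSR, SRXN1, TALDO1, TKT, ME1 and GPX2, of which GPX2 was detected in HCC38 alone. Of these 9, only TALDO1 and ME1 lay below 0 in all 4 lines within slide 1. Within slide 2 NQO1, HMOX1, GCLC, TKT, ME1 and GPX2 did. The 5 were KEAP1, GSS, GPX1, GSTP1 and GSTK1. Both 72 h arrays lay below both 0 h arrays in 3 or 4 lines for 1 member, NQO1 (all genes 4.9%), and above them for 2, KEAP1 and GSS (all genes 4.3%). At 24 h 1 member, GSTM3, lay below in this way (all genes 2.54%) and 2, KEAP1 and GPX1, above (all genes 2.45%).

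**Figure D3:**
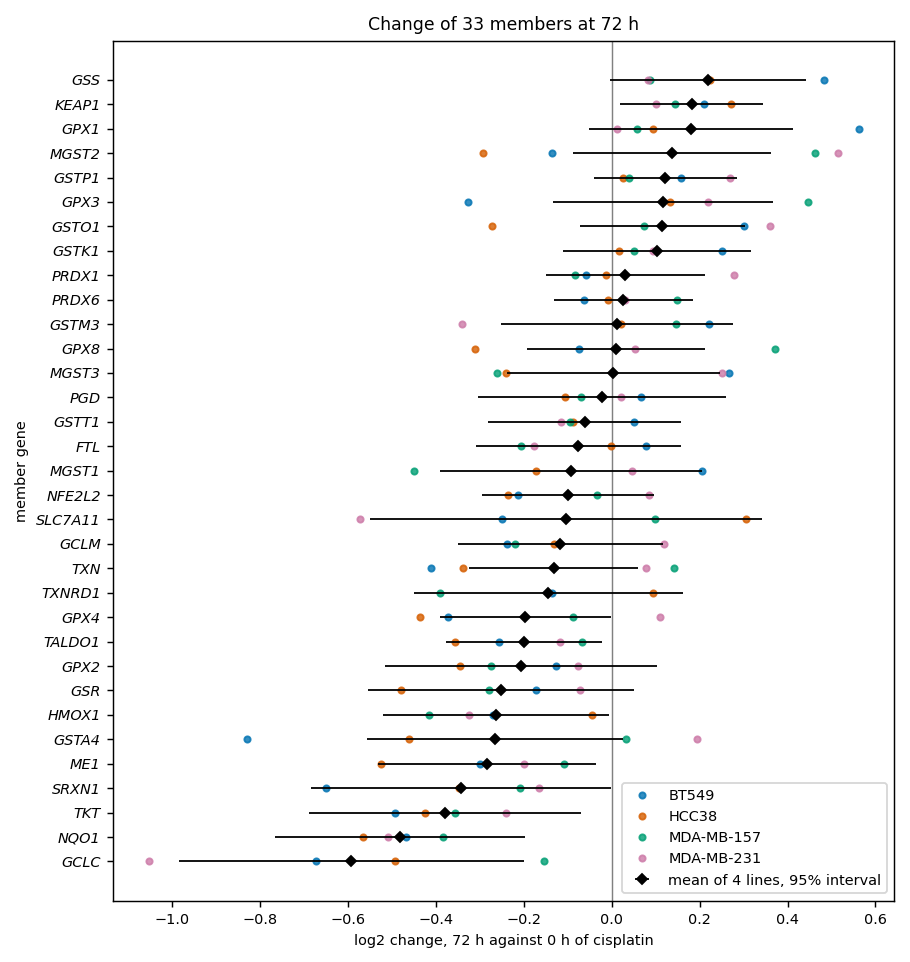
Log2 change from 0 to 72 h of cisplatin (x axis) of the 33 members (y axis, ordered by the mean), with coloured points for each line and black diamonds for the mean of 4 lines with its 95% confidence interval. NQO1 and GCLC lie farthest below 0, and the mean of GSS farthest above it at 0.22, with an interval that reaches 0.

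Scaling each array to its median in place of quantile normalization moved the median change of all genes at 72 h to -0.47 in BT549, -0.22 in HCC38, 0.17 in MDA-MB-157 and 0.12 in MDA-MB-231. Relative to these shifts, 7 of the 9 members stayed below 0 in all lines, and GSR and GPX2 did so in 3. Of the 5 above 0, GSS and GPX1 stayed above in all lines. KEAP1 and GSTP1 turned below 0 in 1 line, and GSTK1 in 2.

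NQO1 had the smallest p of the members at 72 h. It read 13.22 and 12.77 at 0 h and 12.90 and 12.15 at 72 h in BT549, 13.87 and 13.62 then 13.19 and 13.17 in HCC38, 11.93 and 11.45 then 11.45 and 11.16 in MDA-MB-157, and 11.38 and 11.22 then 11.07 and 10.51 in MDA-MB-231. The groups lay apart in HCC38 and MDA-MB-231, touched in MDA-MB-157, where the nearest arrays both round to 11.45, and overlapped in BT549. The mean change was -0.48 (SE 0.14, 95% interval -0.77 to -0.20, adjusted p = 0.0837), and the lines gave -0.47, -0.57, -0.38 and -0.51 in the order above. Relative to the shifts of median scaling these were -0.62, -0.39, -0.36 and -0.43. A second, dimmer NQO1 probe averaged -0.36, with 0.03 in MDA-MB-231.

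That value of NQO1 was called in 3 of 39 alternatives. With the replicate number as a block its adjusted p was 0.0102, with the number as a block within each line 0.00679, and without BT549 72 h replicate 1 it was 0.0313. Without replicate 2 of that group it was 0.181. Within slide 1 the mean change was -0.35, below 0 in 3 of 4 lines, and within slide 2 it was -0.62, below 0 in 4. HMOX1 averaged -0.26 at 72 h (SE 0.12, adjusted p = 0.306), with 0.02 within slide 1 and -0.54 within slide 2.

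GCLC had the lowest mean change, -0.59 at 72 h (SE 0.19, 95% interval -0.99 to -0.20, adjusted p = 0.121). It went from 7.84 and 7.99 to 7.03 and 7.46 in BT549, from 9.30 and 8.26 to 8.55 and 8.03 in HCC38, from 7.41 and 7.83 to 7.50 and 7.44 in MDA-MB-157, and from 7.60 and 9.08 to 7.27 and 7.31 in MDA-MB-231. The groups were apart in BT549 and MDA-MB-231 and overlapped in the other lines. MDA-MB-231 gave -1.05 (adjusted p = 0.395), from 0 h replicates that lay 1.48 log2 units apart, and the value rested on which of them was used. Without replicate 1 at 0 h it gave -1.79 (adjusted p = 0.00877), and without replicate 2 it gave -0.31 (adjusted p = 1.00). Where 1 array is left in a group, it is assumed to vary like the other groups.

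The 2 slides differed in this gene. The GCLC mean change was -0.25 within slide 1, below 0 in 2 of 4 lines, and -0.94 within slide 2, below 0 in 4. The higher 0 h array of HCC38 (9.30), of MDA-MB-157 (7.83) and of MDA-MB-231 (9.08) was in each case on slide 2, and in BT549 the lower one (7.84) was. Without MDA-MB-231 0 h replicate 1 the mean over the lines was -0.78 (adjusted p = 0.0111), and without replicate 2 it was -0.41 (0.213). The adjusted p was 0.0333 with the replicate number as a block within each line, and no other alternative called it.

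The other genes of glutathione supply had smaller means. GCLM averaged 0.16 at 24 h and -0.12 at 72 h. GSS averaged 0.22 at 72 h (SE 0.11, adjusted p = 0.335), with 0.48 in BT549 and 0.08 to 0.22 in the other lines. GSR, glutathione reductase, averaged -0.25 on the probe used and 0.22 on its second, dimmer probe, so its direction was not settled. SLC7A11 gave 0.31 in HCC38 at 72 h, where it was detected throughout, with replicates 1.66 log2 units apart at 0 h.

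All 4 NADPH suppliers had means below 0 at 72 h, with a median of -0.24. TKT averaged -0.38 (SE 0.15, adjusted p = 0.206), going in BT549 from 12.73 and 12.34 to 12.49 and 11.59 and in MDA-MB-157 from 11.45 and 11.28 to 11.02 and 11.00. It was apart from 0 h in HCC38 and MDA-MB-157 and overlapped in BT549 and MDA-MB-231. TKT averaged -0.19 within slide 1 and -0.57 within slide 2. ME1 averaged -0.28 (adjusted p = 0.244) and TALDO1 -0.20 (adjusted p = 0.256), while PGD averaged -0.02.

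In the thioredoxin group SRXN1 averaged -0.34 at 72 h (SE 0.16, adjusted p = 0.319) and 0.05 at 24 h, with -0.65 in BT549 at 72 h. Its 72 h mean was -0.10 within slide 1 and -0.59 within slide 2. TXN averaged -0.13 and TXNRD1 -0.14. PRDX1 averaged 0.03 and PRDX6 0.03, with 95% intervals of -0.15 to 0.21 and -0.13 to 0.19, and FTL averaged -0.08.

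Of the regulators, KEAP1 had the smallest p of the members at 24 h. It went from 9.34 and 9.48 to 9.66 and 9.85 in BT549, from 8.57 and 8.34 to 8.90 and 8.73 in HCC38, from 8.98 and 8.86 to 9.33 and 9.18 in MDA-MB-157, and from 8.78 and 8.95 to 9.08 and 9.01 in MDA-MB-231. Both 24 h arrays lay above both 0 h arrays in all 4 lines. The mean change was 0.31 (SE 0.08, 95% interval 0.14 to 0.47, adjusted p = 0.213), and 0.33 and 0.28 within slides 1 and 2. At 72 h it was 0.18. The second detected KEAP1 probe gave 0.18 at 24 h and 0.04 at 72 h, and -0.32 and -0.42 in MDA-MB-231. Relative to the shifts of median scaling, the first probe gave 0.16 to 0.40 over the lines at 24 h and -0.06 to 0.23 at 72 h. NFE2L2 averaged 0.03 and -0.10, with a 95% interval at 72 h of -0.29 to 0.10.

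**Figure D4:**
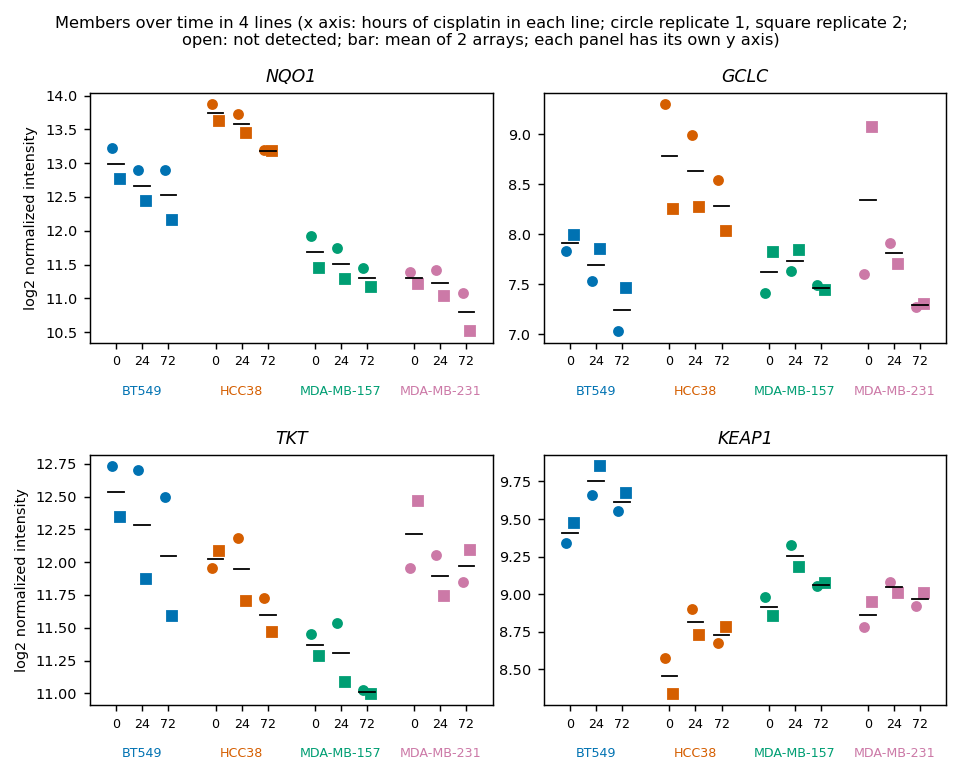
Log2 normalized intensity (y axis, its own range in each panel) of NQO1, GCLC, TKT and KEAP1 on all 24 arrays, by line and hours of cisplatin (x axis), with circles for replicate 1, squares for replicate 2 and bars for means of 2. The NQO1 bars descend from 0 to 72 h in each line, KEAP1 is above its 0 h arrays at 24 h in each line, and the GCLC replicates of HCC38 and MDA-MB-231 are far apart at 0 h.

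The peroxidases and transferases had means at 72 h on both sides of 0. GPX1 averaged 0.18 with 0.56 in BT549, GPX4 averaged -0.20 (adjusted p = 0.317), and GPX8 and GPX3 averaged 0.01 and 0.12. GPX4 gave -0.37 in BT549, -0.44 in HCC38, -0.09 in MDA-MB-157 and 0.11 in MDA-MB-231. With the authors' values its BT549 change at 72 h was -0.76 and was called (limma, adjusted p = 0.0283). Of the 9 transferases 3 lay below 0 at 72 h and 8 at 24 h. GSTM3 averaged -0.35 at 24 h (SE 0.13, adjusted p = 0.459) and 0.01 at 72 h, and in HCC38 it was detected on no 24 h array. GSTP1 and GSTO1 averaged 0.12 and 0.12 at 72 h.

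Within single lines no member was called either. limma called 4 of all genes in at least 1 line at 24 h (0.027%) and 173 at 72 h (1.17%). At an unadjusted p under 0.05 the members at 24 h numbered 1 in BT549 (all genes 5.54%), 2 in HCC38 (4.42%), 1 in MDA-MB-157 (4.25%) and 1 in MDA-MB-231 (8.57%). At 72 h they numbered 4 in BT549 (all genes 12.5%), 3 in HCC38 (10.3%), 1 in MDA-MB-157 (6.88%) and 2 in MDA-MB-231 (9.35%). In BT549 these were GSTA4, GPX1, GSS and TXN. GSTA4 there went from 8.36 and 7.90 to 7.74 and 6.85, without overlap, a change of -0.83 (SE 0.28, adjusted p = 0.187). It was called with the authors' values (adjusted p = 0.0349) and with the replicate block within each line (0.0391). Without BT549 72 h replicate 1 it was -1.28 (adjusted p = 0.0353), and without replicate 2 it was -0.38 (0.793). GSTA4 gave -0.46 in HCC38, 0.03 in MDA-MB-157 and 0.19 in MDA-MB-231.

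The F test of whether the change differed between lines called 0 of 33 members at both times. It called 0 of all genes at 24 h (0%) and 6 at 72 h (0.0405%), and at an unadjusted p under 0.05 it held 0 members at 24 h (all genes 4.25%) and 1 at 72 h (all genes 9.53%). The 1 was MGST2 (adjusted p = 0.471). MGST2 went from 10.26 and 10.29 to 10.69 and 10.79 in MDA-MB-157 and from 9.86 and 9.09 to 9.96 and 10.02 in MDA-MB-231, above 0 h in both, while HCC38 went from 9.94 and 10.15 to 9.97 and 9.54. The changes were 0.46, 0.51 and -0.29, and no BT549 array detected it. The MDA-MB-231 change at 72 h was 0.90 without 0 h replicate 1 (adjusted p = 0.0211) and 0.13 without 0 h replicate 2 (adjusted p = 1.00). At 24 h these were 0.90 (0.0230) and 0.12 (1.00).

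Another 74 genes of the same pathways, listed with earlier results of these data known, gave a comparison. Of these, 63 passed the detection rule, and 54 of the 63 (85.7%) differed between lines at 0 h, against 66.8% of all genes. In the 72 h average 1 of 63 was called, the median change was 0.00, and 33 lay above and 30 below 0. The 1 was PIR, an iron-binding nuclear protein and reported NRF2 target, which fell by a mean of 0.59 log2 units (SE 0.14, adjusted p = 0.0476), with -0.86 in BT549, -0.74 in HCC38, -0.26 in MDA-MB-157 and -0.50 in MDA-MB-231. PIR stayed below 0 in 39 of 39 alternatives but was called in 10. Without all arrays of any 1 line PIR was not called (limma, adjusted p = 0.0769 to 0.205). It was not called with median scaling, the authors' values, the mean of probes or no detection filter, nor without any 1 array of HCC38, MDA-MB-157 or MDA-MB-231, either BT549 array at 0 h, or BT549 72 h replicate 2. At the low end lay also OPLAH, which recycles 5-oxoproline (-0.61), the NADPH-making isocitrate dehydrogenase IDH1 (-0.53) and the glutathione conjugate exporter ABCC4 (-0.41). At the other end lay TXNIP, the inhibitor of thioredoxin (1.07, adjusted p = 0.118), the small MAF protein MAFF (0.40), IDH2 (0.18) and the carbonyl reductase CBR3 (0.18), and none of these 7 was called.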

How the data were processed

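RNA of the 24 samples was measured on single-colour Illumina arrays. The deposited non-normalized table gives, per the file headers, an average signal, used as intensity, and a detection p-value for each of 47322 probes. The authors also deposited a log2 table, whose identifiers do not belong to its values. Of its rows, 47319 were matched to probes by value within 0.02, and it served only as an alternative.

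Intensities were background-corrected by normexp with negative controls inferred from the detection p-values (offset 16), put on a log2 scale and quantile normalized in limma 3.58.1 (R 4.3.3). Of the probes, 30112 had 1 symbol, 8 several and 17202 none. The detection filter asked for p under 0.05 on 2 or more arrays, and the probe with the highest mean stood for a gene. One mean per group was fitted with lmFit and eBayes, with Benjamini-Hochberg adjustment over 14807 genes. Slide 1 and slide 2 were inferred from the number that opens each array's name, and each holds 1 array of every group. The code was tested on simulated data.

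The members, the other pathway genes and the markers were chosen with earlier results of these data known. By rule, values per array were given for members called over time, of which there were none, and for the 8 with the largest F between lines at 0 h. SLC7A11, SRXN1, GCLC, TKT, KEAP1, GSTA4 and other members named for single values were chosen after their values were seen. Of the other pathway genes, those called and the 4 with the largest 72 h change in each direction were named. Alternatives covered background correction, normalization, the authors' values, detection filter, probe choice, array weights, slide and replicate blocks, and leaving out each array or line. Those for NQO1, GCLC, TKT, KEAP1 and PIR alone were added after seeing the data.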

Additional observations from a re-analysis of the deposited data

How the results depend on the processing

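Between lines at 0 h, 26 members were called with median scaling and 31 with array weights, the ends of the range over settings, and leaving out 1 array gave 27 to 31. In the 72 h average the count of 0 members became 1 with the replicate number as a block and 2 with it as a block within each line, and 0 to 1 when 1 array was left out. In single lines at 72 h it became 2 with the authors' values and 1 with the replicate block within each line, and 0 to 2 when 1 array was left out. At 24 h in single lines it was 0 to 1 when 1 array was left out. Correlations of same-numbered arrays' deviations were 0.378 to 0.501 in BT549 and -0.0492 to 0.218 in the other lines. They were not all over 0.1, and no label ties equal numbers, so the fit without the block was kept. For the lines at 0 h no count was taken with the block within each line. Of all genes, limma called 179 in the 72 h average, but 0 with median scaling, 51 with the authors' values, 338 with an offset of 50, 352 without background correction, 264 with the replicate block, 504 with that block set within each line, and 1, 32 and 38 without all arrays of BT549, HCC38 or MDA-MB-157. The cause was not tested. The array number, 2 per group, and signals near background limit the precision.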

Other observations

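In the 2 lines where SLC7A11 was detected, its 0 h replicates lay far apart together with those of GCLC, SRXN1 and TXNRD1. On the slide 2 array of HCC38 at 0 h they read 8.09, 9.30, 11.69 and 11.75, and on the slide 1 array 6.43, 8.26, 10.71 and 10.79. In MDA-MB-231 at 0 h the slide 2 array read 6.19, 9.08, 10.30 and 11.89 and the slide 1 array 4.75, 7.60, 9.55 and 11.20. The slide's part in this was not tested.

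NQO1 read higher in replicate 1 than in replicate 2 in 12 of 12 groups. It was 1 of 33 members (3.03%) with replicates in the same order in all groups, against 0.52% of all genes.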
